A study of Mus musculus with 6 samples.

Results

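The cytosolic ribosomal protein genes were followed in E12.5 mouse hearts, which were either wild type (CTR, 3 libraries) or labelled for loss of Trim28 (CKO in the titles, TRIM28 knockdown in the genotype field, 3 libraries). They were taken as every row of the count table whose symbol is Rpl or Rps followed by p0 to p2, by a, or by a number with at most an a, l or x and 1 further digit. This gave 87 of 30619 rows, 52 named for the large and 35 for the small ribosomal subunit. The heart was sampled whole, as mixed cardiac cells, and poly(A) RNA was sequenced. The driver of the deletion, the deleted exons, the age or sex of single embryos and the number of hearts in a library are not stated in the labels. Nor do the labels say that libraries came from separate animals, so a p-value reflects only the spread from library to library, which may be technical.

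A ribosome joins a small subunit, which reads the mRNA, to a large subunit, which forms the peptide bonds, and each subunit is a scaffold of ribosomal RNA covered by ribosomal proteins. The proteins are needed in equal numbers, with the stalk proteins Rplp1 and Rplp2 as the exception. Their mRNAs begin with a terminal oligopyrimidine (TOP) tract, a C followed by further C or T letters, through which mTORC1 and LARP1 control their translation together. Most of these genes have left many processed pseudogenes in the genome, and a few have paralogs with tissue-restricted expression, such as Rpl3l in striated muscle.

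The rule did not keep to functional genes. GENCODE M21 classed 82 of the 87 rows as protein coding and 5 as pseudogenes, namely Rps3a2, Rps3a3, Rps4l, Rpl6l and Rpl32l. It also passed over 4 ribosome components with other names or suffixes, among them Fau, whose product carries a small-subunit protein fused to a ubiquitin-like sequence, Rack1 of the small subunit, and Rpl36al. The filter on low counts was passed by 85 rows, 81 of them coding, and not by Rpl39l (2, 5 and 1 counts in CTR 1 to 3 and 10, 0 and 4 in CKO 1 to 3) or Rpl32l.

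Trim28 was measured at 305, 391 and 443 CPM (counts relative to the library size after TMM scaling) in CTR 1 to 3 and at 172, 314 and 165 CPM in CKO 1 to 3. Its log2 fold change of -0.81 (SE 0.34) was not called, that is, its adjusted p was not under 0.05 (edgeR quasi-likelihood test, adjusted p = 0.339), and the library labelled CKO 2 lay within the CTR range, so its label is not borne out by this gene. The libraries held 34400841 to 39763233 counts. The row CT010467.1, which holds ribosomal RNA, took 0.127% to 0.522% of the counts in CTR and 0.563% to 0.79% in CKO, higher in every CKO library. Y-linked genes summed to 0.026, 80.4 and 122 CPM in the CTR libraries and to 102, 208 and 209 CPM in the CKO libraries. The part of either difference in the results below was not tested beyond the covariate fits given with them. Cardiomyocyte genes were abundant in all 6 libraries, with Myh6 between 3415 and 4892 CPM. Among the marker lists, 2 of 10 cardiomyocyte genes (Myh6 and Myl7) and 4 of 10 macrophage genes were called higher in CKO, against 3.03% of all genes tested. Called lower were 3 of 6 endothelial genes and 1 of 6 mesenchyme genes (Postn), against 1.07% of all genes, and none of 11 erythroid, 5 epicardial or 3 skeletal muscle genes was called by edgeR. The cardiomyocyte list had a median log2 fold change of 0.004, and Myh7 in it was at -0.23 (adjusted p = 0.138). Of the erythroid, epicardial and skeletal muscle lists, 1 gene each had an unadjusted p under 0.05, and DESeq2 called Alas2 and Acta1 while limma-voom called Acta1.

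Sequences from 2 places bear on the results, the start of the transcripts and the body of the one gene that was called. RefSeq on GRCm38.p6 gave a transcription start for 63 of the 87 rows. A run of at least 6 C or T letters overlapping the 10 bases on either side of the start was present in 39 of these (61.9%) and in 33.5% of all 27025 genes of the table. The search read the strand of the gene only. 3 windows from 40 bases before the start to base 16 of the transcript are shown, because the first pair holds such a run at the start and the last, that of a member at nearly the highest level in the set, does not. Capitals mark the longest C or T run that overlaps the window searched.
Rps27 (chr3:90213633-90213688, minus strand): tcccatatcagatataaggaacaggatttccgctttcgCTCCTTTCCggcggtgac
Rps18 (chr17:33955650-33955705, minus strand): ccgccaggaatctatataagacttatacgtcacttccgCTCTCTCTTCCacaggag
Rplp0 (chr5:115559427-115559482, plus strand): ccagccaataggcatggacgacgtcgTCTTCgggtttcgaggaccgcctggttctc
The run began 2 bases before the annotated start in Rps27 and in Rps18, and was 9 and 11 letters long. In Rplp0 the longest run had 5 letters and began 14 bases before the start. An annotated start can lie a few bases from the start used in the heart, so a missing run says only that these letters are not in this window.

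The second place is Rps4l (ENSMUSG00000063171.4, chr6:148354656-148355598, plus strand, mm10), annotated as a transcribed processed pseudogene, an intronless copy made from the mRNA of Rps4x. Rps4x, on the X chromosome, encodes the small-subunit protein eS4. Rps4l has 1 exon and lies inside an intron of Tmtc1, which is on the opposite strand. Over 925 aligned bases, 77.7% were identical between the transcripts, with 206 mismatches. The longest reading frame of Rps4l had 262 codons and that of Rps4x 263. The stretch of 60 bases within the reading frame with the most mismatches and no gap is shown, its 20 mismatches in capitals, because it marks where reads of the copies can be told apart.
Rps4l (chr6:148355184-148355243, plus strand): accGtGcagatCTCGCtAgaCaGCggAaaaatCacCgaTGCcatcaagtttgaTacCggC
Rps4x (bases 569 to 628 of the transcript): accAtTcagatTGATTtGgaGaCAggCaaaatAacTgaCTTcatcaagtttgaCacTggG
Of all 50-base windows of Rps4l, 14.9% occurred in another annotated transcript, and all of these in Rps4l-ps. None occurred in Rps4x. That is low for the set, in which the median member shared 60% of its windows and 55 of 87 shared at least 50%. Windows were sought on both strands, so genes that overlap a member on the opposite strand are included. The labels do not say how the authors counted reads that match several genes, so levels of members with many shared windows are uncertain.

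As a group, the ribosomal protein genes took 2.92%, 2.82% and 2.75% of all counts in CTR 1 to 3 and 2.82%, 2.64% and 2.65% in CKO 1 to 3. The groups overlapped, with CKO 1 level with CTR 2. The means were 2.83% ± 0.087 in CTR and 2.71% ± 0.103 in CKO (SD, n = 3 each), a log2 ratio of -0.06. The large-subunit genes took 1.62% ± 0.0505 in CTR and 1.54% ± 0.0538 in CKO, and the small-subunit genes 1.21% ± 0.0367 and 1.16% ± 0.0495, so both subunits differed by a similar amount. In whole hearts, fewer cells of a type and less RNA per cell cannot be told apart. The 77 genes of the mitochondrial ribosome, which is built from other proteins, took 0.298% ± 0.0034 in CTR and 0.297% ± 0.0148 in CKO.

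Levels were compared between genes per kilobase of transcript, as the mean CPM of the 6 libraries divided by the length of the shortest principal transcript in GENCODE M21. The coding members had a median of 398 CPM per kilobase, with quartiles at 265 and 576. The highest were the stalk protein gene Rplp1 (1003 CPM per kilobase), Rplp0 (905), which anchors the stalk, Rps2 (868), Rpl41 (854), which encodes the smallest ribosomal protein, and Rpl10 (781), whose product joins the large subunit late in its maturation. Only 10 coding members were below 100 CPM per kilobase.

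**Figure D1:**
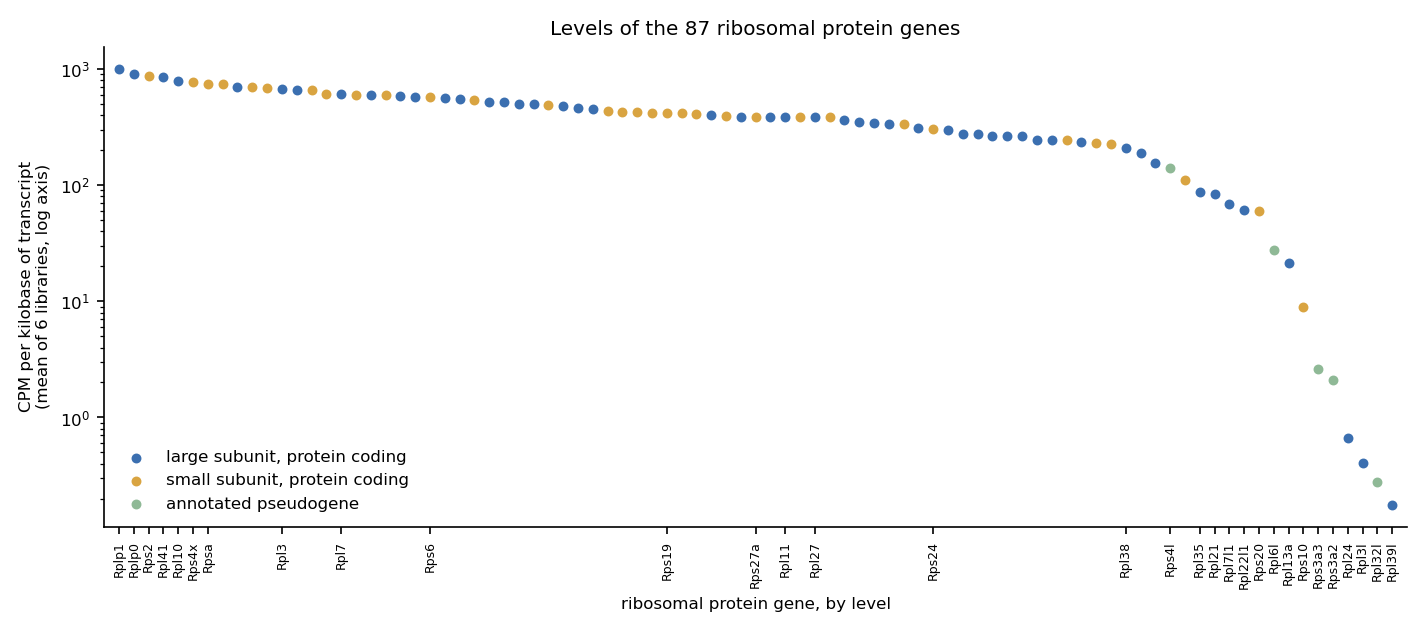
Mean level of each of the 87 ribosomal protein genes over the 6 libraries, in CPM per kilobase of transcript on a log axis, ordered from high to low (only some are labelled) and coloured by subunit and annotation class (1 point per gene). The quartiles of the coding genes are 265 and 576 CPM per kilobase, and Rps10, Rpl24, Rpl3l and Rpl39l lie below 10.

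Those 10 fell into several kinds. Rpl3l (0.406 CPM per kilobase), Rpl39l (0.177), Rpl22l1 (60.9) and Rpl7l1 (68.4) are paralogs of a more abundant gene. Rpl3l, which replaces Rpl3 in the ribosomes of mature heart and skeletal muscle, was counted 9, 10 and 28 times in CTR 1 to 3 and 19, 26 and 33 times in CKO 1 to 3. Rpl3 itself was at 676 CPM per kilobase.

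Rps10, Rpl24 and Rpl13a are core ribosomal proteins present in every ribosome, yet were low at 8.98, 0.663 and 21.4 CPM per kilobase. Each shares exonic bases on its own strand with a second annotated gene, RPS10-NUDT3 over 475 bases, Gm28037 over 484 and Gm45713 over 621. Rps10 was counted 166, 155 and 180 times in CTR 1 to 3 and 137, 189 and 181 times in CKO 1 to 3. The processed pseudogene Rps10-ps2 was counted 4090, 3450 and 3380 times in CTR and 4014, 3319 and 3852 times in CKO, above Rps10 in all 6. The part of the overlaps in these low counts was not tested. Among the other low members, Rps20 (60.2 CPM per kilobase) has a single principal transcript of 3706 bases, which lowers any value per length, while its level of 212 to 239 CPM was ordinary. Rpl35 (88) shared 95.1% of its windows with other genes and Rpl21 (83.7) shared 55.5%. For Rpl35 the largest share, 59% of its windows, was with Wdr38, a coding gene that overlaps it on the opposite strand.

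The libraries differed in their overall level of ribosomal protein mRNA, and the groups overlapped. CTR 1 and CKO 1 were the highest libraries, and CKO 2 and CKO 3 the lowest. Each CTR library lay above the CKO library of the same number. Over the 78 coding members at 10 CPM or more, the median log2 deviation from each gene's own mean was 0.09, 0.01 and -0.04 in CTR 1 to 3 and 0.07, -0.06 and -0.06 in CKO 1 to 3. In CTR 1, 75 of the 78 genes were above their mean and in CKO 1 71 were, against 7 in the library labelled CKO 2, 11 in CKO 3 and 12 in CTR 3. The genes moved together from library to library, with a median pairwise correlation of r = 0.68 across the 6 libraries, which share scaling and depth. Erythroid markers took 0.222%, 0.163% and 0.131% of the counts in CTR 1 to 3 and 0.114%, 0.129% and 0.129% in CKO 1 to 3. Their share was highest in CTR 1 and lowest in CKO 1, the 2 libraries that were highest for the ribosomal protein genes.

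**Figure D2:**
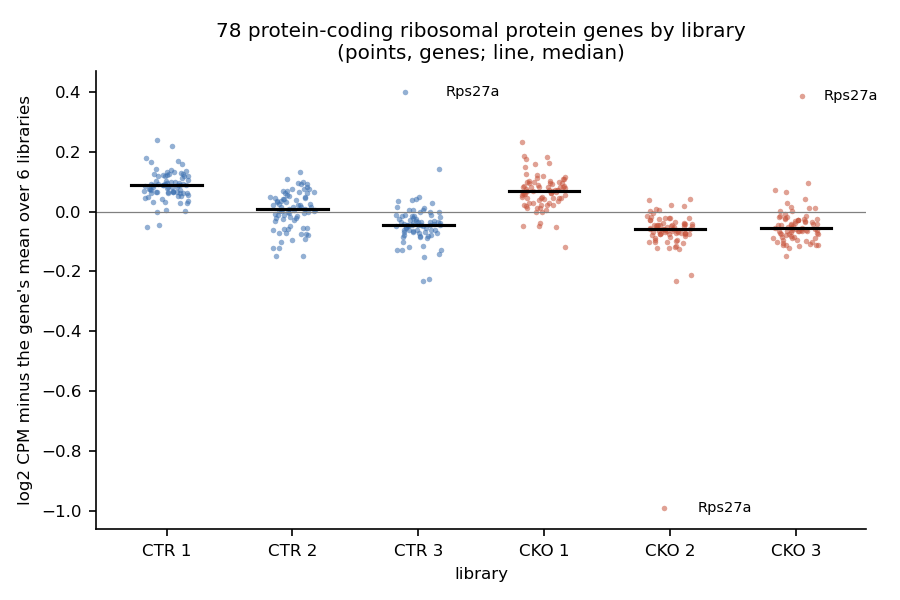
Log2 CPM of each of 78 coding ribosomal protein genes minus its mean over the 6 libraries (vertical axis), by library (horizontal axis); points are genes and black lines medians. CTR 1 and CKO 1 lie above 0, CTR 3, CKO 2 and CKO 3 below, and Rps27a stands apart in CTR 3, CKO 2 and CKO 3.

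Between genotypes, none of the 81 coding members tested was called by edgeR, and 1 of all 85 tested members was (Rps4l, higher), 1.18% of them, against 4.1% of the 17557 genes tested (3.03% higher and 1.07% lower in CKO). At an unadjusted p under 0.05 there were 2 members (2.35%), 1 of them Rps4l, against 17.8% of all genes. DESeq2 called 1 coding member and limma-voom 0. The median log2 fold change was -0.03 over the members, -0.03 for the large and -0.03 for the small subunit, and 0.00 over all genes. The median size of the change, regardless of sign, was 0.05 for the members, 0.13 for all genes and 0.07 for the 4743 genes at 50 CPM or more. The members' log2 fold change was below 0 in 65 and above 0 in 20, 76.5% below 0 against 49.2% of all genes; these genes vary together, so the 65 are not independent. The members' median lay between -0.08 (without CKO 1) and -0.00099 (without CTR 1) when a library was left out. It was -0.08 with offsets for transcript length and GC content, and -0.14 with the share of ribosomal RNA, which itself did not overlap between the groups, as a covariate.

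The precision was high enough to bound most differences. For 72 of the 85 tested members, the whole 95% interval lay within a 1.2-fold change in either direction (0.263 on the log2 scale). The other 13 were Rps4l, Rpl3l, Rps27a, Rps27l, Rpl22l1, Rps10, Rpl38, Rpl27, Rpl41, Rpl24 and the pseudogenes Rps3a2, Rps3a3 and Rpl6l. Apart from Rps4l, which was called, their differences could not be bounded this closely at this depth and spread. The CPM ranges of the groups did not overlap in 6 members (7.06%), against 22.1% of all genes. These were Rps4l, higher in CKO, and 5 that were lower, among them Rpl10, Rpl7, Rpl23a and Rpl7l1.

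**Figure D3:**
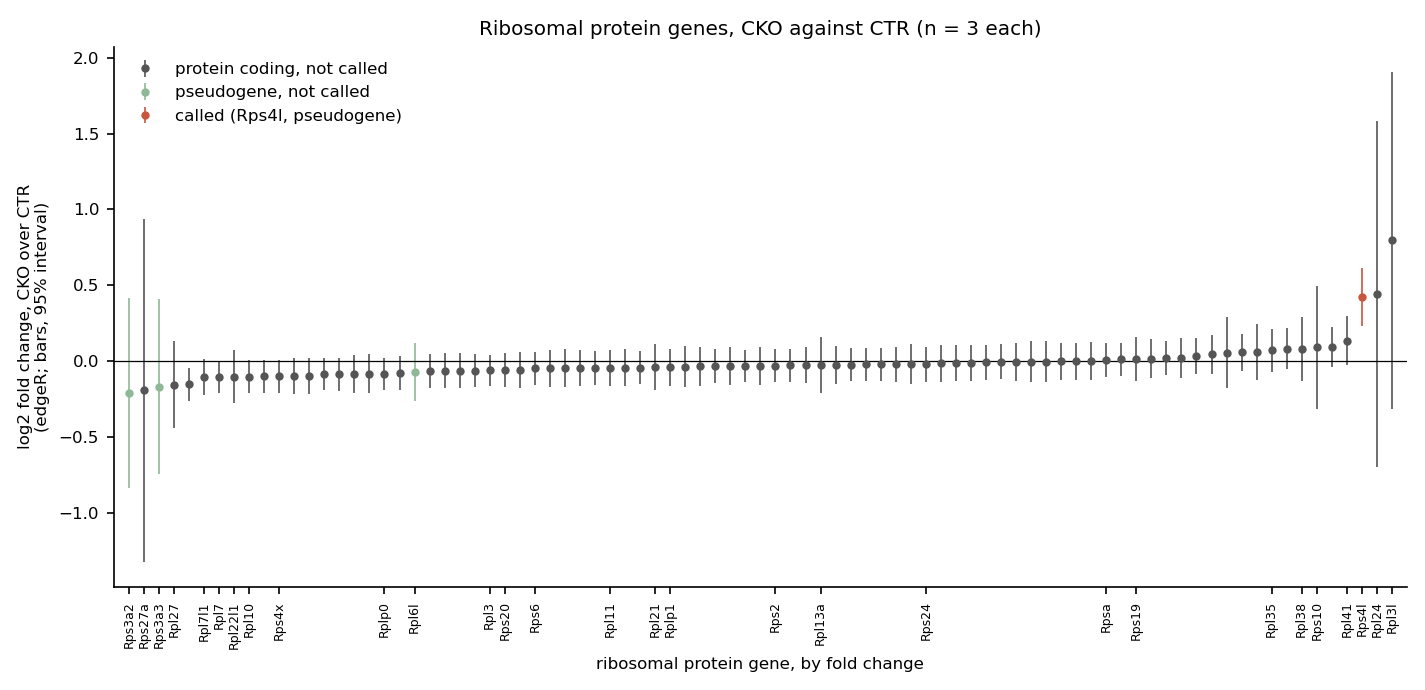
Log2 fold change of CKO over CTR (edgeR, n = 3 libraries per group) for the 85 tested ribosomal protein genes, ordered by value (only some are labelled), with bars for the 95% interval; red marks Rps4l, the 1 called gene, and green the uncalled pseudogenes. Most intervals are narrow and cross 0, and the widest belong to Rps27a and to genes at low counts. That of Rpl27, at 202 to 276 CPM, is also wider than most.

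Several abundant members with a fold change below 0 had p-values among the smallest of the set without being called. Those named next had an unadjusted p from 0.0518 to 0.0628 (edgeR). Rpl7, a large-subunit protein gene, was at 716, 755 and 708 CPM in CTR 1 to 3 and at 706, 664 and 655 CPM in CKO 1 to 3. All CKO libraries were below all CTR libraries, with means of 726 ± 25.1 and 675 ± 27.3 CPM (SD, n = 3 each) and a difference of -0.11 on the log2 scale (adjusted p = 0.285). Rpl10 was at -0.10 (adjusted p = 0.298), Rpl4, which lines the peptide exit tunnel, at -0.10 (adjusted p = 0.303) and Rps4x at -0.10 (adjusted p = 0.314).

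On the other side, Rpl41 was at 395, 335 and 337 CPM in CTR 1 to 3 and at 422, 352 and 397 CPM in CKO 1 to 3. The groups overlapped, and the log2 fold change of 0.13 (SE 0.08) was not called (adjusted p = 0.397). Next came Rpl3l at 0.80 (SE 0.53, adjusted p = 0.478), Rps21 at 0.09 (adjusted p = 0.502) and Rps27 at 0.08 (adjusted p = 0.581).

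None of the members named here for a role beyond the shared one was called. Rpl5 and Rpl11, which with the small RNA of the large subunit bind MDM2 when assembly is disturbed, had log2 fold changes of -0.03 and -0.05 (SE 0.05 and 0.06, adjusted p = 0.836 and 0.752). Of genes mutated in Diamond-Blackfan anaemia, for which no list was fixed, Rps19 was at 0.01 (264 ± 26 CPM in CTR and 266 ± 19 in CKO), Rps24 at -0.02, Rpl26 at -0.05 and Rpl35a at 0.02 (adjusted p from 0.743 to 0.962). Further from 0 were Rpl27 at -0.16 (SE 0.12, adjusted p = 0.583), Rps26 at -0.10 (SE 0.06, adjusted p = 0.397) and Rps29 at -0.09 (SE 0.06, adjusted p = 0.5), the last of which was called lower with length and GC offsets. Rps14, whose loss underlies the anaemia of the 5q- syndrome, was at -0.03 (adjusted p = 0.887). Rps6, the substrate of the S6 kinases, was at 522, 528 and 487 CPM in CTR and 513, 490 and 482 CPM in CKO (log2 fold change -0.05, adjusted p = 0.694). Rpl38, required for the translation of Hox mRNAs in the mouse embryo, was at 80, 67.6 and 60.6 CPM in CTR and 80.3, 73.1 and 67 CPM in CKO (log2 fold change 0.08, SE 0.10, adjusted p = 0.746). Rpsa, also known as the laminin receptor, was at 0.01 (SE 0.05, adjusted p = 0.972), and Rps3, which also acts in DNA repair, at -0.06 (adjusted p = 0.666). Of the stalk genes, Rplp0 was at -0.08, Rplp1 at -0.04 and Rplp2 at -0.01 (adjusted p = 0.417, 0.783 and 0.974).

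Rps4l was the exception. It was counted at 119, 111 and 108 CPM in CTR 1 to 3 and at 171, 129 and 153 CPM in CKO 1 to 3. Every CKO library was above every CTR library, and the library labelled CKO 2, whose Trim28 level was in the CTR range, was the lowest of the CKO libraries. The log2 fold change was 0.42 (SE 0.09, 95% interval 0.23 to 0.61), a 1.34-fold rise (adjusted p = 0.0209). It was 0.52 without CKO 2. The call was kept in 17 of 22 alternatives and in 3 of the 6 fits that left out a library. It was lost without CTR 2, CTR 3 or CKO 3 (adjusted p = 0.0945, 0.0894 and 0.0931), with Y-linked expression as a covariate (log2 fold change 0.43, adjusted p = 0.114), and with the ribosomal RNA share as a covariate (log2 fold change 0.30, adjusted p = 0.544).

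Neither its parent gene nor its host gene was called. Rps4x was at 801, 809 and 744 CPM in CTR 1 to 3 and 763, 722 and 708 CPM in CKO 1 to 3. As a share of Rps4x, Rps4l stood at 14.9%, 13.7% and 14.5% in CTR and at 22.4%, 17.9% and 21.6% in CKO, a difference of 0.52 on the log2 scale (exact permutation test, two-sided p = 0.1, the smallest that 3 against 3 allows, adjusted p = 0.5 over 5 pairs). Tmtc1, whose intron holds Rps4l, was at 30.8, 28.2 and 25.8 CPM in CTR and 19.1, 27 and 20.5 CPM in CKO. The log2 fold change of Tmtc1 was -0.35 (SE 0.12) and was not called (adjusted p = 0.11), and its sign was opposite to that of Rps4l. The labels do not say whether the counting used strand. Retained intron reads of Tmtc1 would be counted with Rps4l if it did not, and their share was not measured.

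Of the other pseudogenes in the set, Rpl6l was at 24.5 ± 1.68 CPM in CTR and 23.3 ± 1.85 in CKO, Rps3a2 at 1.77 ± 0.404 and 1.53 ± 0.11, and Rps3a3 at 2.2 ± 0.315 and 1.94 ± 0.461 (SD, n = 3 each), none of them called. Outside the set, 179 rows carried the symbol of a ribosomal protein pseudogene. None of the 79 of these that were tested was called by edgeR, DESeq2 or limma-voom, with a median log2 fold change of 0.03. By edgeR, 4.1% of all genes were called. An unadjusted p under 0.05 was found in 0, against 17.8% of all genes. Some of the 79 were at low counts and could hardly be called, such as Rps15a-ps6 (means of 0.355 CPM in CTR and 0.139 in CKO, SE 0.75 on the log2 scale). All 179 summed to 0.0677% ± 0.0027 of the counts in CTR and 0.068% ± 0.004 in CKO. Rows under other symbols that share windows with members are not among these 179. Of such rows BC004004, which holds 31.1% of the windows of Rpl21, was called higher. It was at 51.5, 50.4 and 50.2 CPM in CTR 1 to 3 and 66.7, 57 and 58.2 CPM in CKO 1 to 3 (log2 fold change 0.26, SE 0.07, adjusted p = 0.0405). Many such rows were tested, and 3.03% of all genes were called higher. The call therefore describes BC004004 and not the copies as a group.

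**Figure D4:**
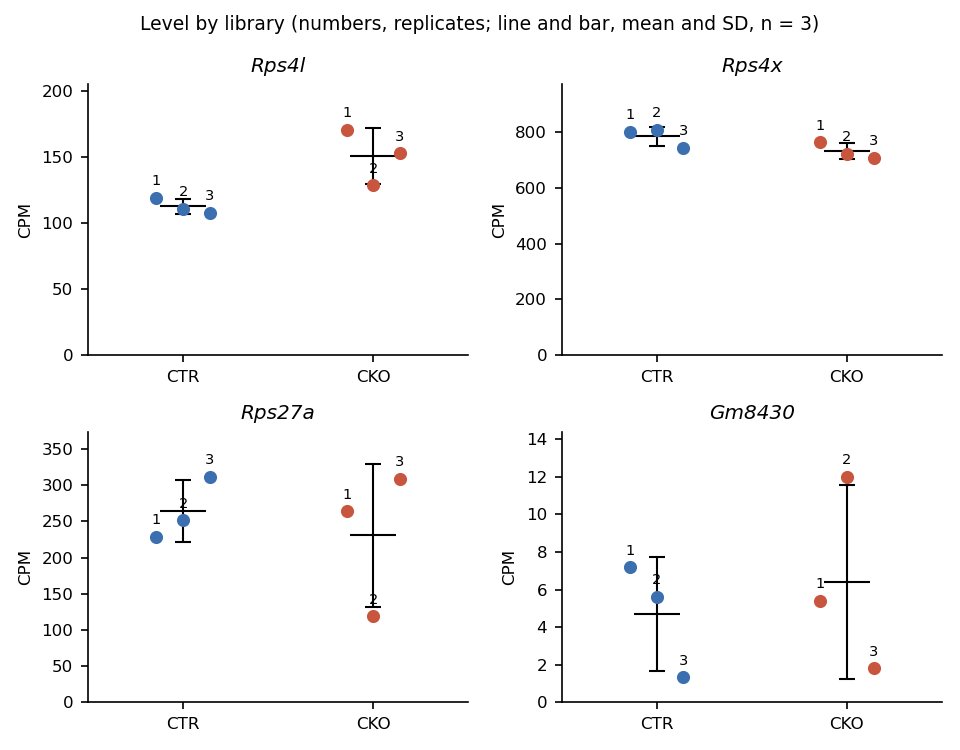
CPM of Rps4l, its parent Rps4x, Rps27a and the Rps27a pseudogene Gm8430 (vertical axes, from 0) in the CTR and CKO libraries; numbers mark replicates, and lines and bars the mean and SD of 3 libraries. Rps4l is higher in every CKO library, while Rps27a is lowest and Gm8430 highest in CKO 2.

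In the other 4 pairs of paralogs the ratios of the groups overlapped. Rpl22l1, which in some cells takes the place of Rpl22, stood at 17.4%, 13.6% and 16.5% of Rpl22 in CTR and at 15.6%, 14.8% and 16.2% in CKO (difference in log2 -0.02, exact permutation p = 0.9). Rps27l, a target of p53, stood at 43.8%, 41.7% and 40.5% of Rps27 in CTR and at 42.8%, 36.2% and 44.7% in CKO (difference -0.03, exact permutation p = 0.9). Rpl7l1, the paralog of Rpl7, stood at 13.1%, 12.2% and 13.1% in CTR and at 12.7%, 12.8% and 12.8% in CKO (difference -0.00037, exact permutation p = 1). Rpl3l stood at 0.0239% to 0.0821% of Rpl3 in CTR and 0.0565% to 0.0955% in CKO (difference 1.03, exact permutation p = 0.2). The adjusted p was 0.5 to 1 over the 5 pairs, and with 3 libraries against 3 none could pass 0.05. Rpl39l, at 0 counts in CKO 2, was not set against Rpl39.

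Among coding members at 10 CPM or more, Rps27a stood apart in its range across libraries. It encodes a fusion of ubiquitin with a small-subunit protein, and was at 229, 252 and 311 CPM in CTR 1 to 3 and at 263, 119 and 309 CPM in CKO 1 to 3. The library labelled CKO 2 held 4088 counts, against 9116 to 12225 in the other 5. The ratio of the highest to the lowest library was 2.62, where the median of the 78 coding members was 1.15 and the next largest ratio was 1.38 (Rps27l). Its median correlation with the other coding members across the 6 libraries was r = 0.14, against 0.68 for the set. A low correlation was not particular to Rps27a, as 13 coding members were below 0.5. Rps2 (0.08), Rpl13a (-0.55), Rpl3l (-0.67) and Rps10 (-0.68) were lower still. The difference between genotypes was -0.19 on the log2 scale with an SE of 0.41 (adjusted p = 0.877).

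The copies of Rps27a named here, Gm8430 and Rps27a-ps2, ran the other way. Windows of Rps27a occur in 14 other genes, and further copies are not reported here. The processed pseudogene Gm8430 (chromosome 6, 122456904 to 122457374), which holds 63.3% of the windows of Rps27a, was counted 287, 216 and 50 times in CTR 1 to 3 and 196, 413 and 72 times in CKO 1 to 3. It was thus highest in the library where Rps27a was lowest, and low in CTR 3 and CKO 3, where Rps27a was highest. Rps27a-ps2 had its highest count, 108, in the same library. Both counts were small beside the gap in Rps27a, which had 4088 counts there against 9116 to 12225 elsewhere. How reads were divided between these rows was not tested.

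Fold changes were also set against the run of C or T letters shown above. The 37 tested coding members with a run of at least 6 C or T letters at the start had a median log2 fold change of -0.02 (from -0.10 to 0.09), and the 24 without had one of -0.04 (from -0.16 to 0.80, the highest being Rpl3l). Across the 78 coding members at 10 CPM or more, the fold change had a rank correlation of rho = -0.33 with transcript length and -0.35 with CPM, while over 10090 genes at that level rho with length was -0.12. These describe genes that share libraries and are not independent.

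The wider machinery of ribosome production was also mostly uncalled. None of the 4 ribosome components outside the name pattern was called (Fau 0.06, Rack1 -0.06 and Rpl36al 0.10 on the log2 scale, adjusted p from 0.581 to 0.958), and 0 had an unadjusted p under 0.05. None of the 15 genes for RNA polymerase I, which transcribes ribosomal RNA, was called (median -0.04), and 1 had an unadjusted p under 0.05. That gene was Cd3eap, at 18.3 to 20 CPM in CTR and 22.2 to 25.3 CPM in CKO (log2 fold change 0.30, SE 0.09, adjusted p = 0.0866). Ubtf, the architectural factor of RNA polymerase I, was at -0.10 (SE 0.05, adjusted p = 0.299). The 42 assembly factors had a median log2 fold change of 0.007. An unadjusted p under 0.05 was found in 7, all with a fold change below 0, against 17.8% of all genes in either direction. Only 1 was called, lower, against 1.07% of all genes. This was Nop10, a core protein of the H/ACA particles that convert uridine to pseudouridine in ribosomal RNA, at 58.3, 59.7 and 56.7 CPM in CTR 1 to 3 and 48, 51.6 and 48.1 CPM in CKO 1 to 3 (log2 fold change -0.24, SE 0.06, adjusted p = 0.0373). The groups did not overlap, but among the 6 fits without a library only the one without CKO 2 called Nop10 (adjusted p = 0.0747 to 0.177 in the others). Its partner Dkc1, the pseudouridine synthase, was at -0.18 (SE 0.07, adjusted p = 0.144), and the nucleolar chaperone Npm1 at -0.12 (SE 0.05, adjusted p = 0.171).

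Translation factors whose mRNAs also carry a TOP tract had a median log2 fold change of -0.05, and none of 17 was called. An unadjusted p under 0.05 was found in 3 of the 17, against 17.8% of all genes. Eef1a1, the elongation factor that brings aminoacyl-tRNA to the ribosome, was at 6464, 6680 and 6246 CPM in CTR 1 to 3 and 6066, 5932 and 5787 CPM in CKO 1 to 3. All CKO libraries were below all CTR libraries, as in 10.6% of all genes (log2 fold change -0.12, SE 0.05, adjusted p = 0.167). Eif4b was at -0.14 (adjusted p = 0.175), the poly(A)-binding protein gene Pabpc1 at -0.11 (adjusted p = 0.247) and Eef2 at -0.05 (adjusted p = 0.694). None of 8 snoRNA host genes with TOP transcripts was called, among them Gas5 (0.03, adjusted p = 0.851), nor was any of the 77 mitochondrial ribosomal protein genes (median 0.03). The unadjusted p was under 0.05 in 0 and 4 of these, against 17.8% of all genes. DESeq2 and limma-voom also called 0 genes in each of these lists without an edgeR call.

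The last 3 lists were mTORC1 and LARP1 control, the MYC family, and the MDM2 and p53 checkpoint. In them 4 genes were called, 2 of 18, 1 of 9 and 1 of 5, against 4.1% of all genes. An unadjusted p under 0.05 was found in 6 of the 18, 4 of the 9 and 3 of the 5, against 17.8% of all genes. The lists were chosen with earlier results of these data known, so no excess can be read from these shares. In the list of 18 genes of mTORC1 and LARP1 control, Ddit4 and Sesn2, which inhibit mTORC1, were called higher and no gene lower. The median log2 fold change of the list was -0.01. Of its uncalled genes at an unadjusted p under 0.05, Deptor (-0.48), Mlst8 (-0.26) and Mtor (-0.14) were below 0 and Eif4ebp1 (0.18) was above. Their adjusted p ran from 0.139 to 0.251. Ddit4 was at 47.5, 49.6 and 48.1 CPM in CTR 1 to 3 and 61.9, 66.5 and 58.2 CPM in CKO 1 to 3 (log2 fold change 0.36, SE 0.07, adjusted p = 0.00345). Sesn2 was at 17.5, 19.2 and 15.7 CPM in CTR and 29.4, 20.4 and 30.4 CPM in CKO (log2 fold change 0.62, SE 0.14, adjusted p = 0.0265), with the library labelled CKO 2 nearest the CTR range. Sesn2 was not called without CTR 1 (adjusted p = 0.102), CTR 3 (0.119), CKO 1 (0.0985) or CKO 3 (0.107). Larp1, which binds the TOP tract, was at -0.01 (adjusted p = 0.969). In the MYC family 1 of 9 was called. Mycn, a transcription factor needed for growth of the embryonic myocardium, fell from 64.3, 61.5 and 57.9 CPM in CTR 1 to 3 to 35.3, 49.5 and 36.3 CPM in CKO 1 to 3 (log2 fold change -0.60, SE 0.12, adjusted p = 0.017). Mycn was not called without CTR 1 (adjusted p = 0.0662), CTR 2 (0.0818) or CKO 3 (0.0583). Myc was at 0.01 (adjusted p = 0.967). Of the 5 tested genes of the MDM2 and p53 checkpoint, 1 was called. Cdkn1a, the cell cycle inhibitor induced by p53, was at 28.3, 29.2 and 24.8 CPM in CTR and 55.2, 37.8 and 50.6 CPM in CKO (log2 fold change 0.80, SE 0.13, adjusted p = 0.0069). Mdm2 was at 0.14 (SE 0.06, adjusted p = 0.242) and Trp53 at -0.16 (SE 0.05, adjusted p = 0.107). In Sesn2, Mycn and Cdkn1a the library labelled CKO 2 was the CKO library nearest the CTR values, as it was in Rps4l and Trim28, whereas in Ddit4 it was the farthest from them. With the ribosomal RNA share as a covariate, none of the genes Nop10, Ddit4, Sesn2, Mycn and Cdkn1a was called (adjusted p from 0.22 to 0.526), while their log2 fold changes were -0.26, 0.36, 0.56, -0.70 and 0.67. With Y-linked expression as a covariate, Mycn (log2 fold change -0.61, adjusted p = 0.105) and Nop10 (-0.22, adjusted p = 0.208) were not called, and the other 3 were.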

How the data were processed

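Poly(A) RNA of 6 libraries (3 CTR, 3 CKO, 500 ng of total RNA each) had been counted per gene by the authors, and the deposited values are raw counts per the labels, on mm10 per the submitters' processing notes. The aligner, counter, strand setting and treatment of multiply mapped reads are not named in the labels. Of 30619 rows, 30151 matched 1 GENCODE M21 gene after 2017 altered symbols were restored.

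All rows entered one fit in edgeR 4.0.16 (R 4.3.3): filterByExpr (minimum count 10, total 15), TMM factors and a robust quasi-likelihood F test, two-sided, with group as the only term. P-values were adjusted by Benjamini-Hochberg over 17557 genes, with 0.05 as the limit for a call. Unless named otherwise, adjusted p-values of genes are from this edgeR test. CPM uses TMM-scaled library sizes, and shares use raw totals. Log2 fold changes are CKO over CTR. The pipeline was tested on simulated counts. Paralog ratios were tested by exact permutation over libraries. Shared windows are 50-base windows of a member's transcript found, on either strand, in another gene's transcripts. Genes that overlap the member in the genome are included.

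The members, gene lists and naming rule were chosen with earlier results of these data known. Named were called members, the 5 smallest p in each direction, paralog pairs, the 5 highest and lowest levels, members failing the filter, well-known members and, of other lists, called genes and up to 3 with the smallest p. Other genes were named after their values were seen, and some genes the rule names are not reported here.

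Alternatives were other scalings, filters, DESeq2 1.42.0, limma-voom (limma 3.58.1), covariates, length and GC offsets, a replicate block and leaving out each library. The edgeR legacy fit was added after seeing the data. The median SE of a member was 0.06 on the log2 scale.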

Additional observations from a re-analysis of the deposited data

How the results depend on the processing

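Genes called over the whole table numbered 720, and 1251 without a filter, 1000 with DESeq2, 310 with Y-linked expression and 56 with the ribosomal RNA share as a covariate, and 301 to 1552 when a library was left out (1552 without CKO 2, 301 without CTR 3, 308 without CKO 3, 322 without CTR 1, 360 without CTR 2). Members called higher numbered 1, and 0 with either covariate and 0 to 1 when a library was left out (0 without CTR 2, CTR 3 or CKO 3). Members called lower numbered 0. There was 1 without scaling factors, without a filter, with DESeq2 and with length and GC offsets plus the replicate block, 3 (Rps29 and Rpl29 among them) with length and GC offsets alone, and 0 to 1 when a library was left out (1 without CKO 2). The median log2 fold change of the members was -0.03 and moved to -0.14 with the ribosomal RNA share as a covariate. The cause was not tested. The log2 ratio of the ribosomal protein share moved by less than its spread between libraries in all alternatives run (-0.10 to -0.04). Of 810 values of named members under alternatives, 799 stayed on the same side of the threshold and none reversed a call, while 52 uncalled values changed sign. Of the 22 alternatives, 21 called Cdkn1a and Ddit4, 17 Mycn, 15 Sesn2 and 13 Nop10, with no change of direction.

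Over all tested genes, same-numbered libraries did not deviate together (r = -0.002, 0.017 and 0.001). Differently numbered ones lay in the same range (r from -0.025 to 0.025). These values cannot exclude pairing, because they weigh genes at low counts like all others. For the ribosomal protein genes, CTR 1 and CKO 1 were the highest libraries. With the replicate block 676 genes were called and Rps4l was the only member called, while Nop10 and Sesn2 were no longer called (adjusted p = 0.0557 and 0.054). How far shared windows and overlaps limit the members' counts was not tested.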
